A study of Mus musculus with 6 samples.

Results

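The 10 genes described here, grouped by role, were read from the RNA-Seq of kidney CD11B+ cells. They are the alarmin genes S100a8 and S100a9, the primary granule genes Mpo and Elane, and the secondary granule genes Ltf, Camp and Ngp. Mmp8, Retnlg and Ly6g are grouped here as mature neutrophil genes, although Mmp8 encodes a collagenase that is itself a granule protein. The 10 genes were taken by symbol from a table of 46603 genes, and all 10 were found. Neutrophils are short-lived granulocytes that leave the bone marrow with their granules already filled. The proteins of primary granules, such as myeloperoxidase and neutrophil elastase, are transcribed at the promyelocyte stage, those of secondary granules, such as lactoferrin, at the myelocyte and metamyelocyte stages, and those of tertiary granules later still, so that a blood or tissue neutrophil carries early granule proteins with little of their mRNA. S100a8 and S100a9 encode the subunits of calprotectin, a calcium- and zinc-binding alarmin that acts on TLR4, and are also transcribed in inflammatory monocytes.

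The cells came from male mice of 10 to 12 weeks on day 3 after bilateral IRI-AKI (ischemia-reperfusion acute kidney injury), with both renal pedicles clamped for 28 minutes. Both groups carried the Rosa26-LSL-RARaT403X allele, a dominant negative RAR behind a stop cassette. PTEC DN RAR mice also carried PEPCK CRE, which removes the stop cassette in proximal tubular epithelial cells (PTECs), and Cre- control mice did not. The PEPCK-Cre line was on a mixed 129svJ and C57BL/6 background and the R26R-DN RAR line on C57BL/6. The transgene was thus directed at tubular cells and not at the CD11B+ cells that were sequenced, which were taken from whole digested kidneys with anti-CD11b magnetic beads. Each group had 3 libraries, labelled as separate samples, and p values measure the spread between these libraries.

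Reads counted on genes ranged from 29318041 to 46517005 per library, so that 3 reads equal 0.0645 to 0.102 CPM. CPM is a read count divided by the size of its library, for gene levels scaled by TMM. Itgam, which encodes CD11B, was at 1737, 1958 and 1994 CPM in Cre- controls and 1366, 1302 and 980 CPM in PTEC DN RAR libraries, and was itself lower in the latter (log2 fold change -0.64, SE 0.14, edgeR adjusted p = 0.00818). Ptprc, the pan-leukocyte CD45 gene, was at 948 ± 116 CPM (SD, n = 3) and 878 ± 114 CPM (SD, n = 3). All 10 proximal tubule markers of a list were higher in PTEC DN RAR libraries, with a summed level of 741 to 983 CPM in controls and 2641 to 3680 CPM in PTEC DN RAR libraries. Of 8 infiltrating monocyte markers 7 were lower, with sums of 3811 to 4111 CPM and 1610.2 to 1672 CPM, while the 8 resident macrophage markers summed to 10316.5 to 11321 CPM and 9834 to 12823 CPM. In a bulk library, fewer cells of a type and less RNA per cell cannot be told apart.

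Promoter sequences are given for the 3 genes that were lower under every processing tried (S100a8, S100a9 and Mmp8) and for the secondary granule gene Ngp, which did not pass the test. They come from RefSeq on GRCm38.p6, cover 250 bases before to 50 bases after the transcription start, and are written 5′ to 3′ on the strand of the gene. Capitals mark matches, on either strand, to a C/EBP motif (TTGCNNAA), a PU.1 motif (GAGGAAGT), an NF-kB motif (GGG and TTTCC with 2 bases between them), a RAR half-site (AGGTCA) or the letters TATAAA. No base was part of more than 1 of these matches.
S100a8, chr3:90668821-90669120, plus strand: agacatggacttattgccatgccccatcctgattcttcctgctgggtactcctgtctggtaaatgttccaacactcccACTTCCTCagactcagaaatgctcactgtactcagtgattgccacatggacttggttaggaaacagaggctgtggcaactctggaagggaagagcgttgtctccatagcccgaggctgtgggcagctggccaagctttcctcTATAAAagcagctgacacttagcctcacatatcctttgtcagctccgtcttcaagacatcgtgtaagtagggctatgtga
S100a9, chr3:90695672-90695971, minus strand: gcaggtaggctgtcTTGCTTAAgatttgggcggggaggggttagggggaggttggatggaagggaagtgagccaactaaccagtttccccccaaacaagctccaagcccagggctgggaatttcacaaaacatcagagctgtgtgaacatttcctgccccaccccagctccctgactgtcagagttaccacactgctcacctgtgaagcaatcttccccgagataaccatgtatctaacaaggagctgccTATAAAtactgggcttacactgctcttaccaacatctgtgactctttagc
Mmp8, chr9:7558179-7558478, plus strand: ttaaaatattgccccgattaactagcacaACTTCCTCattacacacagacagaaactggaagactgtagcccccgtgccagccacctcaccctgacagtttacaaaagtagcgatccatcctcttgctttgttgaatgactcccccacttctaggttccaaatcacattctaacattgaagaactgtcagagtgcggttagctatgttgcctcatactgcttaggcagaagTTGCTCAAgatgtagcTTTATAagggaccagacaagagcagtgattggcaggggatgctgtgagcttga
Ngp, chr9:110419558-110419857, plus strand: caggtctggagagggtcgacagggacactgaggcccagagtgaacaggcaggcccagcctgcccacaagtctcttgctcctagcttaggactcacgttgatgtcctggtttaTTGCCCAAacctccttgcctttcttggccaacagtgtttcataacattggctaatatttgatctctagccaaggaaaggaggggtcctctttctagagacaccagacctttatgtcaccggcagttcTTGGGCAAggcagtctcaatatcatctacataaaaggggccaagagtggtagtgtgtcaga

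The C/EBP motif was found in 6 of the 10 genes (S100a9, Ltf, Ngp, Mmp8, Retnlg and Ly6g) and in 10.8% of all 32851 promoter windows of this length. The PU.1 motif was found in 5 (S100a8, Mpo, Elane, Mmp8 and Ly6g) and in 3.2% of all windows. The letters TATAAA were found in 4 (S100a8, S100a9, Mmp8 and Ly6g) and in 13.6% of all windows. They began at -30 from the annotated start in S100a8, at the start itself in S100a9, at -3 in Mmp8, and at -99 and -167 from the 2 annotated starts of Ly6g. The RAR half-site was found in 3 (Ltf, Retnlg and Ly6g) and in 16.3% of all windows. Neither the NF-kB motif, present in 1.63% of windows, nor the direct repeat of the RAR half-site with 5 bases between its copies, present in 0.00913%, was found in any of the 10. In Ngp, which did not pass the test, the C/EBP motif began 138 and 11 bases before the start, and in Mmp8, which was lower, 19 bases before it. These matches describe letters in a window and do not show binding.

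Of the 10 genes, 8 had enough reads to be tested, and 4 of them (S100a8, S100a9, Mmp8 and Retnlg) were lower in PTEC DN RAR libraries by edgeR's quasi-likelihood test with a Benjamini-Hochberg adjusted p under 0.05. None was higher. Of all 15440 genes tested, 17.1% were lower and 23.6% were higher. All 8 edgeR estimates were below 0, so none was higher at an unadjusted p under 0.05. In separate fits, DESeq2 and limma-voom also called none of the 8 higher. The median log2 fold change of the 8 was -1.08, beside 0.04 over all genes tested. Every PTEC DN RAR library lay below every control for 3 of the 8 (S100a8, S100a9 and Mmp8), and above for 0 of the 8, beside 24.2% and 29.2% of all genes. By role, both alarmin genes, 2 of 3 mature neutrophil genes and 0 of 3 secondary granule genes passed the test, and whether the classes differ is not shown by these counts.

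**Figure D1:**
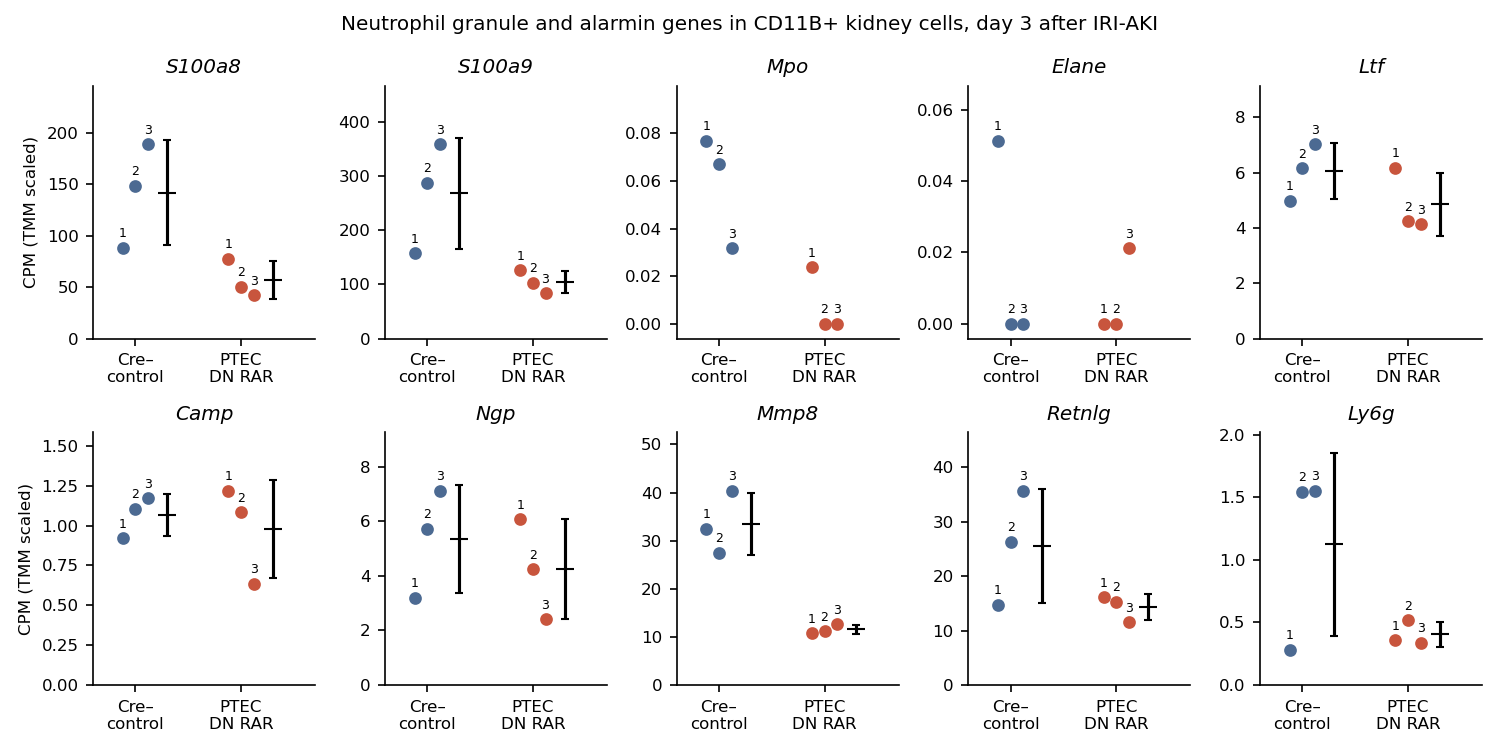
TMM-scaled CPM of the 10 genes (vertical axes from 0 for the 8 tested genes, each panel with its own scale) in 3 Cre- control and 3 PTEC DN RAR libraries, numbered as in the labels, with the mean and SD beside the points of each tested gene. S100a8, S100a9 and Mmp8 do not overlap between the groups, and Mpo and Elane have at most 3 reads in any library.

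The alarmin genes were the most abundant of the 10. S100a8 (chr3:90668978-90670035, GRCm38) was at 88.2, 149 and 189 CPM in Cre- control libraries 1, 2 and 3 and at 77.5, 50.3 and 42.3 CPM in PTEC DN RAR libraries 1, 2 and 3. The groups did not overlap, but control 1 and PTEC DN RAR 1 lay close to each other. The mean was 142 ± 50.7 CPM (SD, n = 3) for controls, against 56.7 ± 18.4 CPM (SD, n = 3) for the other group. S100a8 fell by 1.32 on the log2 scale (SE 0.29, edgeR adjusted p = 0.00805), or 2.5-fold.

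S100a9 (chr3:90692632-90695721) lies near S100a8 on the same chromosome, on the other strand. It was at 158, 289 and 359 CPM in controls and at 126, 104 and 84.2 CPM in PTEC DN RAR libraries. As for S100a8, control 1 was the lowest control, control 3 the highest, and the groups did not overlap. S100a9 fell by 1.36 on the log2 scale (SE 0.27, edgeR adjusted p = 0.00544), or 2.56-fold. The 2 subunit genes moved together library by library. S100a8 had 0.559, 0.516 and 0.526 reads per S100a9 read in controls and 0.614, 0.486 and 0.503 in PTEC DN RAR libraries. These ratios overlapped between groups and differed by -0.01 on the log2 scale (exact permutation test, two-sided, p = 1, n = 3 against 3).

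Among 8991 genes with a mean of at least 10 CPM, the 5 whose pattern over the 6 libraries lay nearest to that of S100a9 were S100a8, Ifitm1, Cxcr2, Slc7a11 and Bub1. The measure was the root mean square distance between mean-centred log2 CPM, which was 0.11 for S100a8, 0.15 for Ifitm1, 0.18 for Cxcr2, 0.19 for Slc7a11 and 0.20 for Bub1. Retnlg was 17th by this measure and Mmp8 174th.

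Of the primary granule genes almost nothing was detected. Mpo, which encodes the myeloperoxidase that makes hypochlorous acid, had 3, 2 and 1 reads in controls and 1, 0 and 0 in PTEC DN RAR libraries. Elane, the gene of neutrophil elastase, had 2, 0 and 0 reads and 0, 0 and 1. No library held more than 3 reads of either, so both were removed by the filter on low counts and no fold is given. Summed over 3 libraries these were 6 and 1 reads of Mpo and 2 and 1 reads of Elane. The ratio of Mpo reads per counted read, PTEC DN RAR to control, was 0.128, with an exact 95% interval of 0.00278 to 1.06 that covers counting error only. A transcript of another gene overlaps Mpo on the opposite strand.

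Prtn3, the gene of the primary granule serine protease proteinase 3, is no member of the 10 but had enough reads to be tested. It was at 3.92, 6.34 and 3.17 CPM in controls and at 0.478, 0.966 and 0.487 CPM in PTEC DN RAR libraries. The lowest control was above the highest PTEC DN RAR library. Prtn3 fell by 2.79 on the log2 scale (SE 0.38, edgeR adjusted p = 0.000966), or 6.93-fold. Of the 6 primary granule genes listed only Prtn3 and Serpinb1a, an inhibitor of these proteases, were tested, and Ctsg and Ms4a3 also had too few reads. Serpinb1a was at 8.45 ± 0.677 CPM (SD, n = 3) for controls, against 12.2 ± 3.19 CPM (SD, n = 3) (log2 fold change 0.54, SE 0.19, edgeR adjusted p = 0.0499), a call that was lost under 9 of 15 alternatives.

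None of the 3 secondary granule genes passed the test. Ltf, the gene of the iron-binding protein lactoferrin, was at 4.99, 6.17 and 7.03 CPM in controls and at 6.18, 4.24 and 4.13 CPM in PTEC DN RAR libraries. The groups overlapped through PTEC DN RAR 1. Its log2 fold change was -0.32 (SE 0.21, edgeR adjusted p = 0.259). Ngp, which encodes a cathelicidin-related granule protein, was at 3.20, 5.73 and 7.12 CPM in controls and at 6.09, 4.24 and 2.41 CPM in PTEC DN RAR libraries. The groups overlapped over most of their ranges, and the log2 fold change was -0.33 (SE 0.37, edgeR adjusted p = 0.505).

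Camp, the gene of the antimicrobial peptide cathelicidin, was at 0.922, 1.11 and 1.17 CPM in controls and at 1.22, 1.08 and 0.635 CPM in PTEC DN RAR libraries, from 30 to 51 reads a library. PTEC DN RAR 1 was the highest of all 6 libraries and PTEC DN RAR 3 the lowest. Its log2 fold change was -0.12 (SE 0.32, edgeR adjusted p = 0.781), and its sign turned under scaling on leukocyte reference genes, under scaling on Itgam and without PTEC DN RAR 3. Under scaling on Itgam, Ltf and Ngp also turned, to 0.33 and 0.29.

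Of the 3 mature neutrophil genes, Mmp8 and Retnlg passed the test and Ly6g did not. Mmp8, the neutrophil collagenase gene (chr9:7558456-7568485), was at 32.4, 27.5 and 40.4 CPM in controls and at 10.8, 11.1 and 12.7 CPM in PTEC DN RAR libraries. The 3 PTEC DN RAR libraries lay close together, far below the lowest control. Mean levels were 33.4 ± 6.50 CPM (SD, n = 3) and 11.5 ± 1.01 CPM (SD, n = 3). Mmp8 fell by 1.53 on the log2 scale (SE 0.15, edgeR adjusted p = 0.000313), or 2.90-fold. Unlike the other 7 tested genes, Mmp8 was not lowest among controls in control 1.

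Retnlg, a resistin-like gene of neutrophils, was at 14.7, 26.4 and 35.7 CPM in controls and at 16.1, 15.3 and 11.6 CPM in PTEC DN RAR libraries. Control 1 lay inside the range of the PTEC DN RAR libraries. Retnlg fell by 0.83 on the log2 scale (SE 0.28, edgeR adjusted p = 0.0442), or 1.78-fold. The call was lost on leaving out any 1 library other than control 1, with adjusted p from 0.0722 without PTEC DN RAR 1 to 0.135 without control 3. By the distance used for S100a9, among the same 8991 genes, S100a9 was the 48th nearest to Retnlg in pattern and S100a8 the 170th. Mmp8, also grouped as a mature neutrophil gene, was the 4837th.

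Ly6g, the gene of the surface antigen that marks mature mouse neutrophils, was at 0.282, 1.54 and 1.55 CPM in controls and at 0.358, 0.518 and 0.339 CPM in PTEC DN RAR libraries. These values rest on 11, 46 and 49 reads in controls and 15, 22 and 16 reads in PTEC DN RAR libraries. Controls 2 and 3 stood above all other libraries, and control 1 below them all. Its log2 fold change of -1.45 (SE 0.59, edgeR adjusted p = 0.0776) did not pass the test, and without control 1 it was -1.93 (edgeR adjusted p = 0.00457).

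Control 1 was the lowest control in 7 of the 8 tested genes and control 3 the highest in 8 of 8. PTEC DN RAR 1 was the highest of its group in 6 and PTEC DN RAR 3 the lowest in 7. The spread within a group was thus shared by most of the 8 genes.

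**Figure D2:**
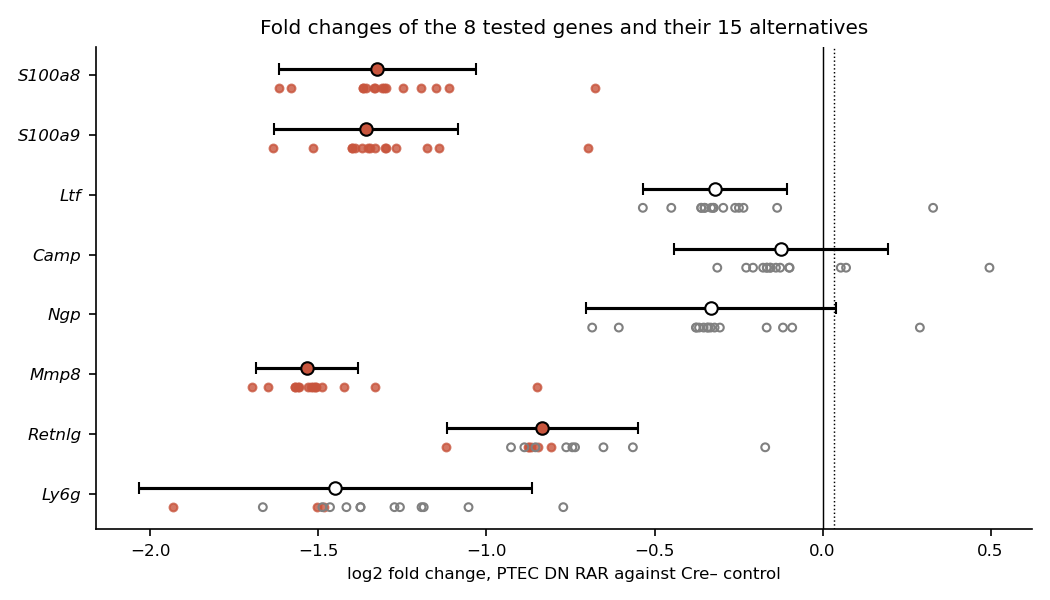
Log2 fold change of the 8 tested genes (horizontal axis, PTEC DN RAR against Cre- control), with the SE as a bar (filled: adjusted p under 0.05) and the 15 alternatives as small points beneath (filled: adjusted p under 0.05), the dotted line marking the median of all genes tested at 0.04. S100a8, S100a9 and Mmp8 stay past the threshold in all 15, and the rightmost point of each gene is scaling on Itgam.

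Per length of transcript (RPKM, from the TMM-scaled CPM), the order of mean levels in controls was S100a9 at 515, S100a8 at 205, Retnlg at 43.2, Mmp8 at 13.8, Ngp at 4.38, Ltf at 1.76, Camp at 1.41 and Ly6g at 1.19. The order was the same in PTEC DN RAR libraries, at 201, 81.7, 24.2, 4.76, 3.48, 1.41, 1.29 and 0.430. The library ranges of Ltf and Camp overlapped in both groups, those of Camp and Ly6g in controls, and those of Mmp8 and Ngp in PTEC DN RAR libraries. Other neighbours in the order did not overlap.

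A ratio of reads within 1 library does not depend on how libraries are scaled, so the secondary granule gene Ltf was used as the denominator. There were 31.6, 46.8 and 51.1 S100a9 reads per Ltf read in controls and 20.4, 24.4 and 20.4 in PTEC DN RAR libraries. Mmp8 gave 6.50, 4.46 and 5.74 reads per Ltf read and 1.75, 2.63 and 3.07. In both ratios every PTEC DN RAR library lay below every control, with log2 differences of -0.96 for S100a9 and -1.19 for Mmp8. By a two-sided exact permutation test each had p = 0.1, the smallest that 3 against 3 allows, and an adjusted p of 0.2 over the 4 ratios tested.

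Retnlg gave 2.95, 4.27 and 5.08 reads per Ltf read in controls and 2.60, 3.62 and 2.81 in PTEC DN RAR libraries. These overlapped, with a log2 difference of -0.43 (exact permutation p = 0.2, adjusted p = 0.267).

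**Figure D3:**
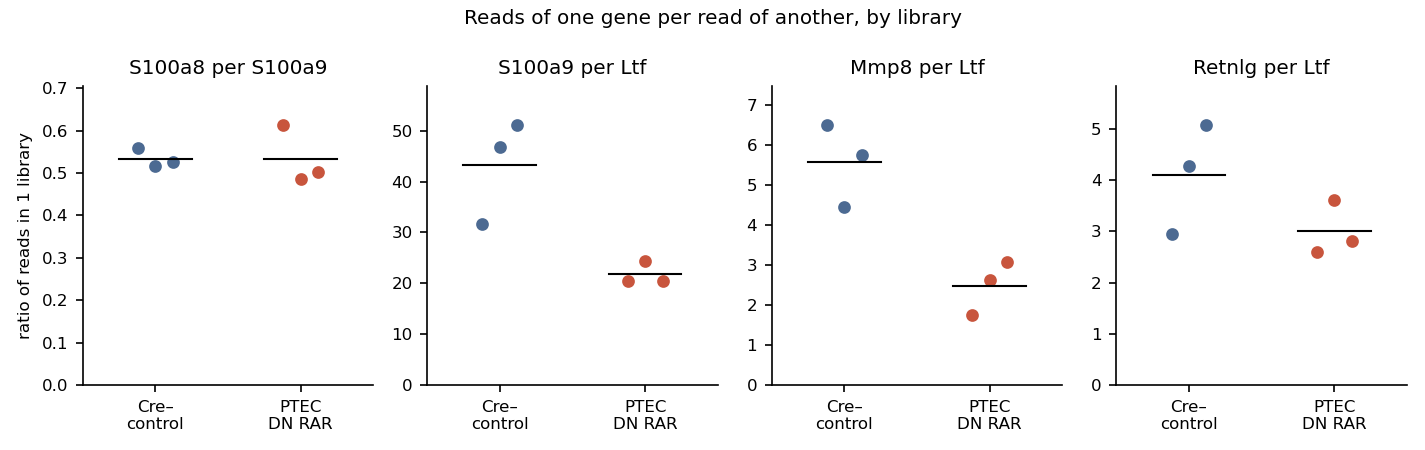
Ratio of reads of 2 genes within a library (vertical axes, from 0) for S100a8 per S100a9 and for S100a9, Mmp8 and Retnlg per Ltf, in 3 Cre- control and 3 PTEC DN RAR libraries, with a line at the group mean. The S100a9 and Mmp8 ratios to Ltf do not overlap between the groups, while the other 2 do.

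The mean log2 CPM of the early genes Mpo and Elane minus that of the mature genes Mmp8, Retnlg and Ly6g was -5.56, -7.07 and -7.65 in controls and -6.05, -6.48 and -5.98 in PTEC DN RAR libraries. The groups overlapped, and the difference of means was 0.59 with a prior count of 2 and -0.29 with a prior count of 0.25. With at most 3 reads of the early genes in any library, the sign of this contrast is set by the prior count and no direction is given. Secondary minus mature genes could be measured. It was -1.11, -1.60 and -1.74 in controls and -0.19, -0.74 and -1.01 in PTEC DN RAR libraries. The groups did not overlap, by a small gap, and the difference of means was 0.84 with a prior count of 2 and 0.85 with 0.25. This contrast was not computed without Mmp8, the only mature gene whose libraries did not overlap between the groups.

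Lists of related genes, which hold some of the 10 genes, are given by counts. Each count here and in the paragraphs below stands beside 17.1% lower and 23.6% higher among all 15440 genes tested. Of the 8 secondary granule genes, all tested, 1 was lower and 7 did not pass the test, with a median log2 fold change of -0.29. The lower gene was Lcn2, which encodes the siderophore-binding protein lipocalin 2 and is also made by injured tubular cells. Lcn2 was at 75.3 ± 18.3 CPM (SD, n = 3) for controls, against 36.3 ± 9.17 CPM (SD, n = 3) (log2 fold change -1.06, SE 0.21, edgeR adjusted p = 0.00517). Cd177 (log2 fold change -0.34) and Hp, the haptoglobin gene (-0.27), did not pass. Cd177 passed as lower in 2 of 15 alternatives.

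Of 14 tertiary granule and mature neutrophil genes, all tested, 11 were lower, 0 higher and 3 (Ly6g, Csf3r and Clec4e) did not pass. Their median was -1.10, and 17.1% of all genes tested were lower. All 14 estimates were below 0. The cells that made this RNA were not identified, and 7 of 8 infiltrating monocyte markers were lower in the same libraries. Mmp9, the gelatinase of tertiary granules, was at 187 ± 59.1 CPM (SD, n = 3) and 43.9 ± 18.2 CPM (SD, n = 3). It fell by 2.09 on the log2 scale (SE 0.31, edgeR adjusted p = 0.00142). Il1r2, the decoy receptor for interleukin-1, fell by 0.90 on the log2 scale (edgeR adjusted p = 0.0142), whereas Csf3r, the G-CSF receptor, was at 170 ± 15.2 CPM (SD, n = 3) and 154 ± 19.2 CPM (SD, n = 3) (log2 fold change -0.14, edgeR adjusted p = 0.346).

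**Figure D4:**
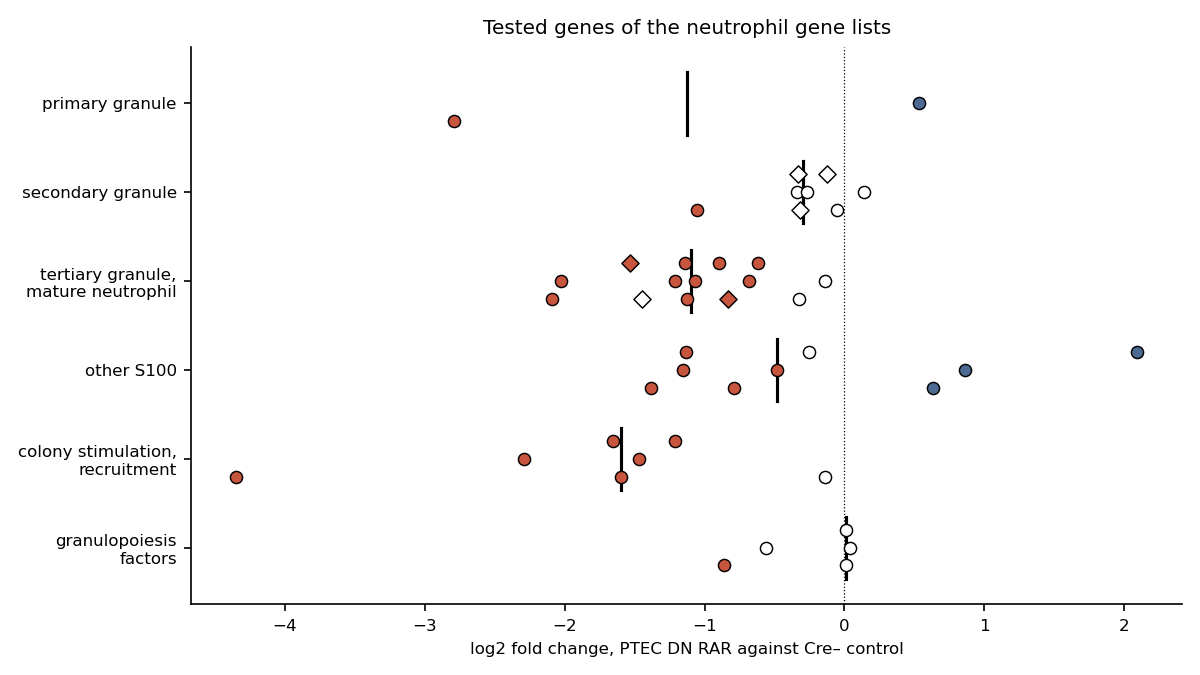
Log2 fold change of each tested gene (horizontal axis, PTEC DN RAR against Cre- control) in 6 gene lists, with diamonds for those of the 10 granule and alarmin genes, filled red for lower, blue for higher and white for no call, and a bar at the list median. The secondary granule list centres at -0.29, and the tertiary and mature neutrophil list at -1.10.

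Of 5 tested factors of granulopoiesis only Cebpb, a C/EBP factor of emergency granulopoiesis and of macrophages, passed the test. It fell by 0.86 on the log2 scale (SE 0.16, edgeR adjusted p = 0.00391). Cebpa, Spi1 (the PU.1 gene) and Cebpd had log2 fold changes of 0.04, 0.01 and 0.01, whose sign changed between alternatives and which passed as higher only under scaling on Itgam (0.67, 0.66 and 0.64, edgeR adjusted p = 0.00546, 0.0042 and 0.0181). Of 7 tested genes of granulocyte colony stimulation and recruitment, which share Cxcr2 and Csf3r with the tertiary granule and mature neutrophil list, 6 were lower, with a median of -1.6. The chemokine genes Cxcl1 and Cxcl2 fell by 1.47 and 1.6 on the log2 scale (edgeR adjusted p = 0.00346 and 0.000455). Ppbp, which encodes a chemokine stored in platelets, fell by 4.35 (edgeR adjusted p = 0.000181), and of 3 platelet markers tested 1 was lower, with a median of -0.10. The lower marker was Pf4, the platelet factor 4 gene, at 258 to 382 CPM in controls and 32.3 to 43.9 CPM in PTEC DN RAR libraries, while Itga2b and Treml1 had log2 fold changes of 0.02 and -0.10 and did not pass. The part of platelet RNA in the fall of Ppbp was not tested.

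Of 6 receptors and partners of calprotectin 3 were lower, 1 higher and 2 did not pass. Tlr4 and the scavenger receptor gene Cd36 fell by 1.03 and 0.93 on the log2 scale (edgeR adjusted p = 0.000695 and 0.000388), and Emb, the embigin gene, fell by 0.77 (edgeR adjusted p = 0.00519). Cd33, a sialic acid-binding receptor gene, was the higher gene (log2 fold change 0.37, SE 0.12, edgeR adjusted p = 0.0389), with overlapping groups. Bsg, the basigin gene, had a log2 fold change of 0.25 (edgeR adjusted p = 0.0967) and passed as higher in 4 of 15 alternatives. Of 9 other S100 genes tested 5 were lower (S100a4, S100a6, S100a10, S100a11 and S100a13) and 3 higher (S100a1, S100a16 and S100g). S100a4, S100a6 and S100a10 fell by 1.13, 1.16 and 1.38 on the log2 scale (edgeR adjusted p = 0.0022, 0.00132 and 0.00101). S100g, a calbindin gene of distal tubules other than Calb1, was higher by 2.09 on the log2 scale (edgeR adjusted p = 0.001). Loop and distal tubule markers summed to 1207 to 1693 CPM in controls and 4211 to 8040 CPM in PTEC DN RAR libraries. Of 5 protease inhibitor genes tested 3 were lower (Slpi, Timp1 and Wfdc21) and 1 higher (Serpinb1a), with Slpi, a secreted inhibitor of elastase, at a log2 fold change of -2.0 (edgeR adjusted p = 0.00435) and Timp1, a metalloproteinase inhibitor, at -1.55 (edgeR adjusted p = 0.000844). Timp2 had a log2 fold change of 0.43 (edgeR adjusted p = 0.0525) and passed as higher in 8 of 15 alternatives.

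The scaling of libraries moved the size of the falls. With scaling on 19 leukocyte reference genes the median of all genes moved to 0.23. Lower genes were then 13.6% of all calls in place of 42.0%. Of these 19 genes 3 (Lcp1, Cd53 and Arhgdib) were themselves lower under TMM. The 19 summed to 14582.5 to 15407 CPM in controls and 11869 to 14025 CPM in PTEC DN RAR libraries. Under this scaling S100a8, S100a9 and Mmp8 kept their calls and Retnlg lost its call. With scaling on Itgam, added after the data had been seen, the median of all genes moved to 0.69 and lower genes were 1.46% of calls. Under the latter S100a8, S100a9 and Mmp8 fell by 0.68, 0.70 and 0.85 on the log2 scale and still passed the test, and Retnlg, at -0.17, did not. Lcn2, Il1r2, Cebpb, Tlr4, Cd36, Emb, S100a4 and S100a6 stayed below 0 under this scaling but lost their calls (edgeR adjusted p from 0.0672 for S100a6 to 0.721 for Emb), and Csf3r turned to 0.51 (edgeR adjusted p = 0.0214). The part of the tubular, endothelial, monocyte and cycling cell RNA in the fall of the 4 genes was not tested. All 6 cycling cell markers tested were lower, with sums of 434 to 701 CPM in controls and 254 to 357 CPM in PTEC DN RAR libraries. The 6 endothelium markers were all higher, with sums of 61.9 to 89.8 CPM in controls and 178 to 216 CPM in PTEC DN RAR libraries.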

How the data were processed

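The authors deposited unnormalized counts for each gene, in 1 table covering all 6 polyA libraries. The submitters' processing notes name STAR 2.5.0a, HTSeq 0.6.1, edgeR, limma and GRCm38. The strand setting of the counting is not given in the sources used here. Reads that aligned to more than 1 place (42.9% to 47.8% of alignments) are outside the gene counts. Of 46612 gene lines 9 duplicates were collapsed, and 27 symbols turned into dates were restored.

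Genotypes were compared with glmQLFit and glmQLFTest of edgeR 4.0.16 (R 4.3.3) after TMM scaling of the genes that passed filterByExpr. P values of the 15440 genes were adjusted by Benjamini-Hochberg. The procedure was first tested on simulated data. RPKM used exon lengths of GENCODE M21. Alternatives were DESeq2 1.42.0, limma-voom 3.58.1, other scalings and filters, a replicate block, and each library left out. The 10 genes, the lists and the motifs were chosen with earlier results of these data known. Named list genes are the 4 tested genes of each list with the highest mean CPM, together with the genes that a count of at most 5 singles out, which were named after their values were seen. Intervals of counts cover counting error only. The genes nearest in pattern to Retnlg are not reported here.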

Additional observations from a re-analysis of the deposited data

How the results depend on the processing

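S100a8, S100a9 and Mmp8 were past the threshold in all 15 alternatives, with log2 fold changes from -1.62 to -0.68, from -1.64 to -0.70 and from -1.70 to -0.85. Retnlg lost its call in 9 of 15 (from -1.12 to -0.17), and Ly6g passed in 3 (DESeq2, no filter on low counts, and without control 1). Of the 10 genes, between 3 and 5 were lower and 0 higher in every alternative. Over all genes, 737 were lower with scaling on leukocyte reference genes, and 139 were lower and 9380 higher with scaling on Itgam, beside 2636 and 3640. Leaving out 1 library at a time gave 1874 to 2824 lower and 2433 to 3699 higher genes. Early minus mature was -0.29 with a prior count of 0.25.

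Signs turned for genes that had not passed. With scaling on leukocyte reference genes Camp was at 0.0542 and Csf3r at 0.0481. With scaling on Itgam, Ltf was at 0.33, Camp at 0.50, Ngp at 0.29, Cd177 at 0.33, Clec4e at 0.30, Csf3r at 0.51 and Hp at 0.37. Cebpa was at -0.000427 by DESeq2 and -0.000609 with its size factors in edgeR. In the same order Cebpd was at -0.0234 and -0.0247, and Spi1 at -0.0259 and -0.0258. Without the filter on low counts Cebpd was at -0.0120 and Spi1 at -0.0152. On leaving out 1 library, Camp ranged from -0.313 to 0.0700, Cebpa from -0.14 to 0.21, Cebpd from -0.20 to 0.30 and Spi1 from -0.0677 to 0.0701. Scaling changes these values by construction, and the cause of the other changes was not tested.

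The replicate number, which the labels give to separate samples, was tried as a block. Correlations of same-numbered libraries were over 0.1 in 1 of 3, and 1 of 3 correlated best with its own number, so the numbers were not taken to pair libraries. With the block 2606 genes were lower and 3612 higher, and 3 of the 10 genes were lower, without Retnlg (-0.76, edgeR adjusted p = 0.0975). With 3 libraries a group, an exact test of a single value cannot go below 0.1, and genes at about 1 CPM, such as Camp and Ly6g, rest on few reads.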
